A study of Mus musculus with 17 samples.

Results

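The 10 genes described here encode the core of the circadian clock and its best known output factor. They are *Arntl*, *Clock*, *Per1*, *Per2*, *Per3*, *Cry1*, *Cry2*, *Nr1d1*, *Nr1d2* and *Dbp*, chosen by name and found by their Ensembl identifiers among the 38355 identifiers counted in each of 17 libraries. All libraries were made from polyA RNA of hand-dissected hippocampus of untreated wild type C57BL/6J mice, a common inbred laboratory strain. Single-end libraries came from mice of 3 months (3M, n = 5) and 24 months (24M, n = 6), and paired-end libraries from mice of 3 months (n = 3) and from mice of 29 months (29M, n = 3). Each aged group was compared with the 3M mice sequenced in the same way, which asks whether clock transcripts in the hippocampus change by 24M, an advanced age, and by 29M, near the end of the life span of this strain. By the study's methods, the oldest mice had been bought at 24 months and then held in the study's own rooms until used. The mice lived in a regular light and dark cycle, and no source used here gives the time of day at which the tissue was taken. Since age, library type and any difference in collection between the sets come together, they cannot be told apart between the single-end and the paired-end set.

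The clock is a feedback loop that runs in nearly every cell, the hippocampus included, and lets transcript levels rise and fall over the day. CLOCK and BMAL1, the product of *Arntl*, bind E-boxes in DNA as a dimer and switch on *Per*, *Cry*, *Nr1d1*, *Nr1d2* and *Dbp*. PER and CRY proteins then inhibit that dimer. The REV-ERB receptors made from *Nr1d1* and *Nr1d2* repress *Arntl* through ROR elements, which ROR receptors use to activate it. *Dbp* encodes a PAR-domain factor that binds D-boxes, and so carries the rhythm to other genes. Over the day, *Arntl* therefore runs roughly opposite to *Per*, *Nr1d1*, *Nr1d2* and *Dbp*.

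Promoter windows from 250 bases before to 50 after the annotated start were matched in RefSeq (GRCm38.p6) for 9 of the 10 genes, as 13 windows. Windows were not matched for *Per2*. Both strands were searched for the E-box CACGTG, its variant CACGTT, the D-box forms TTATGTAA and TTACGTAA, the ROR element cores TAGGTCA and TGGGTCA, and the cAMP response element TGACGTCA. None of the motifs searched overlaps another in these windows. The windows of 4 genes that stand at different places of the loop are shown 5′ to 3′ with the matches in capitals. They are the second *Arntl* window (chr7:113207261-113207560, plus strand), the first *Per1* window (chr11:69098699-69098998, plus strand), *Per3* (chr4:151044616-151044915, minus strand) and *Cry1* (chr10:85185005-85185304, minus strand).
Arntl: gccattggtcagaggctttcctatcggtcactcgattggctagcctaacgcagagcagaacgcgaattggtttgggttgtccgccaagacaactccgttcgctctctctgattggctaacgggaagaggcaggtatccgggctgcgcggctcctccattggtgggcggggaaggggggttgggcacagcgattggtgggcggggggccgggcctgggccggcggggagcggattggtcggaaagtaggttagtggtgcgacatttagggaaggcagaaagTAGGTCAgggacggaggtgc
Per1: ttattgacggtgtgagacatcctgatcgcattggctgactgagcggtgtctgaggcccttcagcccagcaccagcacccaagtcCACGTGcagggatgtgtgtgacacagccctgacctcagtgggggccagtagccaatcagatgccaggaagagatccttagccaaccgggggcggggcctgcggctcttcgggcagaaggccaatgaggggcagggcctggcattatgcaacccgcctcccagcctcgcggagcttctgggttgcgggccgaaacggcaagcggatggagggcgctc
Per3: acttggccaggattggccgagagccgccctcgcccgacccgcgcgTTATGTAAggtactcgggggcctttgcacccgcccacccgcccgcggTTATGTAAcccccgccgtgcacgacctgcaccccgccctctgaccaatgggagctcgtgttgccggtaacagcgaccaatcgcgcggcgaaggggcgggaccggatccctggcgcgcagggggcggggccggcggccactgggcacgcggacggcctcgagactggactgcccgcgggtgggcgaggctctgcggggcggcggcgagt
Cry1: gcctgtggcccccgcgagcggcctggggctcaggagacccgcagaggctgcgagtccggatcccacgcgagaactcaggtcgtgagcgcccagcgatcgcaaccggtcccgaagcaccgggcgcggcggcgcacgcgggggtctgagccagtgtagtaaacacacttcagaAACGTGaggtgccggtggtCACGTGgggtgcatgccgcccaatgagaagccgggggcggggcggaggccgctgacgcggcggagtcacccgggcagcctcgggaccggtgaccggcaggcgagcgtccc
The *Arntl* window held the ROR core TAGGTCA 31 bases after the start, a motif present in 2.61% of 32851 windows of the same length. *Per1* held the E-box CACGTG 166 bases before its start, and *Cry1* held it 60 bases before, where 7.15% of all windows have it. The *Cry1* window also had the variant CACGTT on its other strand (AACGTG as printed) 79 bases before the start. *Per3* held the D-box form TTATGTAA 205 and 158 bases before its start, and 0.938% of all windows hold that motif. The variant CACGTT, found in 4.68% of windows, lay 166 bases before the start of *Cry2* and 28 bases before that of *Nr1d1*. The windows of *Clock*, *Nr1d2* and *Dbp* held none of the motifs searched, which says only that these letters are not in these 300 bases. Of the other motifs, TTACGTAA is in 0.119% of windows, TGGGTCA in 3.98% and TGACGTCA in 1.79%, and no clock gene window had them. All matches are descriptions of letters, not of binding.

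Reads counted on genes numbered between 9213474 and 28438296 per library. The clock genes had between 132 counts (*Cry1*) and 4762 counts (*Cry2*) in a library, so that all 10 passed the filter on low counts at both ages. Levels are given in CPM, the reads of a gene relative to all reads counted on genes, scaled within each library type with TMM. Replicates 1 and 4 of the 24M group differed by less than the sampling noise, with a mean ratio of squared difference to counting variance of 0.406 where the next lowest of 136 library pairs gave 1.23, and were counted as 1 sample. The first of the 5 values at 24M is their mean. The 10 hippocampal markers checked were present in all libraries, and replicate 4 of the 3M single-end group stood apart with a summed level of 12 striatal markers of 747 CPM, where the medians of the single-end groups were 277 and 279 CPM. Replicate 1 of the 3M paired-end group and replicate 2 of the 29M group carried 2.40% and 4.59% of their counts on *Gm42418*. The labels do not say that each library came from a separate mouse, so p-values measure the spread between these samples. In whole tissue, fewer cells of a type and less RNA per cell cannot be told apart.

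At 24M, *Arntl* fell while *Per2*, *Per3*, *Nr1d2* and *Dbp* rose, and at 29M only *Per3* rose among the 10 genes. A gene was said to rise or fall at an adjusted p of at most 0.05 in the quasi-likelihood test of edgeR, adjusted after Benjamini and Hochberg over all genes tested. At 24M, 4 of the 10 clock genes rose, against 3.21% of 15683 genes tested, and 1 fell, against 2.37% of genes. At 29M, 1 of the 10 rose, against 2.32% of 15097 genes, and none fell, against 0.662%, so that 2.99% of genes passed in either direction. With a further threshold of 0.5 on the absolute log2 fold change, 1 clock gene was called at 24M (*Nr1d2*), where 1.98% of genes were called and 1.34% were called higher. At 29M that count was 0 by edgeR, where 1.45% of genes were called and 1.34% were called higher, with 4 clock genes at an unadjusted p under 0.05 (17.3% of all genes). DESeq2 also called 0, with 2 clock genes at an unadjusted p under 0.05 (6.33% of all genes given a p, with no filter on low counts). The median log2 fold change of the 10 genes was 0.21 at 24M and 0.08 at 29M, and that of all genes tested was -0.00319 and -0.0021. All 24M samples lay on 1 side of all 3M samples for 4 clock genes, as they did for 6.57% of genes. These were 3 genes with all 24M samples above (3.15% of genes) and 1 with all below (3.42% of genes), and at 29M this held for 3 clock genes and for 22.4% of genes, with 2 above (11.9% of genes) and 1 below (10.5% of genes).

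**Figure D1:**
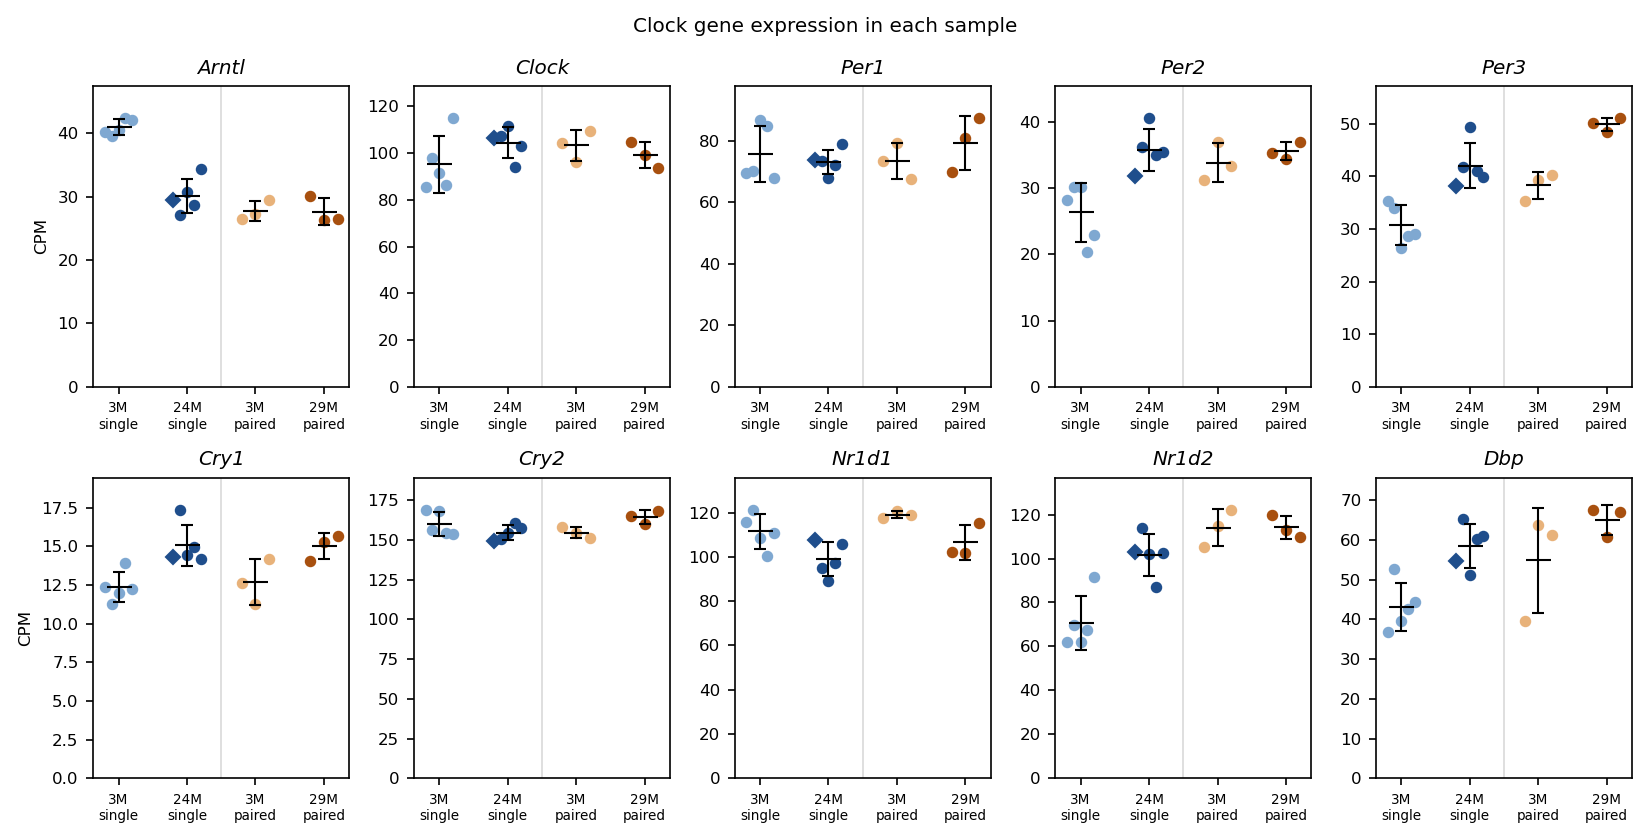
CPM of the 10 clock genes in each sample (y axis from 0, a scale per gene), with the 4 groups on the x axis. Points are samples, diamonds the mean of 24M replicates 1 and 4, and bars the group mean with its SD. *Arntl* at 24M lies below all 3M single-end samples, between 27.2 and 34.3 CPM, and *Per3* lies above its 3M samples at both ages.

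*Arntl* (ENSMUSG00000055116, GRCm38 chr7:113207465-113314126, plus strand) encodes BMAL1, the activator without which the loop stops. It was at 40.2, 39.6, 40.5, 42.3 and 42.1 CPM in the 3M single-end libraries and at 29.5, 27.2, 30.7, 28.7 and 34.3 CPM at 24M. Every 24M sample was lower than every 3M sample, with no overlap. The log2 fold change was -0.45 ± 0.063 (SE, n = 5 against 5, adjusted p = 0.00237 by edgeR), which is 0.732 of the 3M level. The paired-end libraries were at 26.4, 27.2 and 29.4 CPM at 3M and at 30.1, 26.3 and 26.4 CPM at 29M. Those groups overlapped and had nearly the same mean, which was 27.7 ± 1.55 CPM (SD, n = 3) for the young mice and 27.6 ± 2.14 CPM (SD, n = 3) for the old. The log2 fold change there was -0.00063 ± 0.075 (SE, adjusted p = 0.998 by edgeR). The fall at 24M still passed the adjusted p in all 19 alternatives computed, with log2 fold changes between -0.50 and -0.41.

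*Clock* (ENSMUSG00000029238, chr5:76209868-76304792, minus strand) encodes the partner of BMAL1. Its libraries were at 85.3, 98.0, 91.4, 86.2 and 115 CPM at 3M and at 106, 107, 112, 93.9 and 103 CPM at 24M. The groups overlapped, and replicate 5 of the 3M group was above all 24M samples. The log2 fold change was 0.13 ± 0.079 (SE, adjusted p = 0.296 by edgeR). Without that replicate it was 0.20, with an adjusted p of 0.0396. *Clock* in paired-end libraries was at 104, 96.1 and 109.6 CPM at 3M and at 105, 99.2 and 93.6 CPM at 29M, again overlapping, with a log2 fold change of -0.06 ± 0.054 (SE, adjusted p = 0.638).

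Among the repressors of the dimer, *Per2* and *Per3* rose at 24M, *Per3* rose again at 29M, and *Per1*, *Cry1* and *Cry2* did not pass at either age. *Per1* (ENSMUSG00000020893, chr11:69095217-69109960, plus strand) encodes a PER protein and is also switched on quickly by light and by neuronal activity. It was at 69.3, 70.0, 86.7, 84.6 and 67.7 CPM at 3M and at 73.5, 73.3, 67.8, 72.2 and 78.8 CPM at 24M. The 24M samples all lay inside the range of the 3M samples, and the log2 fold change was -0.05 ± 0.076 (SE, adjusted p = 0.698). The paired-end libraries of *Per1* were at 73.3, 79.2 and 67.6 CPM at 3M and at 69.6, 80.8 and 87.3 CPM at 29M. Those groups overlapped too, with a log2 fold change of 0.11 ± 0.078 (SE, adjusted p = 0.511).

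*Per2* (ENSMUSG00000055866, chr1:91415982-91459324, minus strand) encodes the PER protein whose loss shortens and then ends the rhythm of mice in darkness. Its 3M single-end libraries were at 28.2, 30.1, 30.1, 20.3 and 22.8 CPM and its 24M samples at 31.8, 36.1, 40.5, 34.9 and 35.5 CPM. All 24M samples were above all 3M samples, among which replicates 4 and 5 were lowest. The log2 fold change was 0.44 ± 0.11 (SE, adjusted p = 0.0342). *Per2* no longer passed the adjusted p in 6 of the 11 fits that leave out 1 library. Among them was the fit without 3M replicate 4, the library with high striatal markers (log2 fold change 0.36, adjusted p = 0.0533). The other fits in which it did not pass were those without 3M replicate 1 or without 24M replicate 2, 3, 5 or 6, with adjusted p up to 0.0866. With paired ends, *Per2* was at 31.2, 37.0 and 33.3 CPM at 3M and at 35.3, 34.3 and 37.0 CPM at 29M. These groups overlapped, and the log2 fold change was 0.07 ± 0.072 (SE, adjusted p = 0.680).

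*Per3* (ENSMUSG00000028957, chr4:151003652-151044665, minus strand) encodes the PER protein that the loop can do without, and its transcript is a strong rhythmic output in many tissues. It was at 35.3, 34.0, 26.5, 28.7 and 29.0 CPM in the 3M single-end libraries and at 38.1, 41.7, 49.4, 41.0 and 39.9 CPM at 24M. In the paired-end set it was at 35.3, 39.3 and 40.2 CPM at 3M and at 50.05, 48.4 and 51.0 CPM at 29M. At both ages, the aged samples all lay above the 3M samples of their library type. The log2 fold change was 0.46 ± 0.091 (SE, adjusted p = 0.0172) at 24M and 0.38 ± 0.064 (SE, adjusted p = 0.00528) at 29M, which is 1.37 and 1.30 times the 3M level. *Per3* was the only clock gene that rose at both ages. Both rises still passed in each fit that leaves out 1 library, with adjusted p of at most 0.0480 at 24M and 0.0313 at 29M. Leaving out both paired-end libraries rich in *Gm42418* left the log2 fold change of *Per3* at 0.35 (29M, adjusted p = 0.0191). When all 4 groups shared 1 fit, the log2 fold change at 29M stayed at 0.38 and no longer passed (adjusted p = 0.151).

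*Cry1* (ENSMUSG00000020038, chr10:85131700-85185064, minus strand) encodes the CRY protein that holds the dimer inactive on DNA late in the cycle. At 3M it was at 12.4, 11.3, 12.01, 13.9 and 12.3 CPM in single-end libraries and at 24M at 14.3, 17.4, 14.4, 15.0 and 14.2 CPM. All 24M samples were above all 3M samples, yet the log2 fold change of 0.29 ± 0.082 (SE) had an adjusted p of 0.0569. With DESeq2 the adjusted p was 0.0314. Paired-end levels of *Cry1* were 12.6, 11.3 and 14.2 CPM at 3M and 14.0, 15.3 and 15.7 CPM at 29M. Only the highest 3M library reached into the 29M range, and the log2 fold change was 0.25 ± 0.10 (SE, adjusted p = 0.226).

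*Cry2* (ENSMUSG00000068742, chr2:92403646-92434043, minus strand) encodes the other CRY repressor. It was at 169, 156, 168, 154 and 154 CPM at 3M and at 149, 151, 155, 161 and 158 CPM at 24M, with overlap and a log2 fold change of -0.05 ± 0.045 (SE, adjusted p = 0.480). Paired-end levels of *Cry2* were 158, 154 and 152 CPM at 3M and 165, 159.9 and 168 CPM at 29M. There the 29M libraries were all above the 3M libraries by a small margin, and the log2 fold change of 0.09 ± 0.036 (SE) had an adjusted p of 0.222. *Cry2* shares 295 exon bases with *D930015M05Rik* on the opposite strand, a gene with a median of 15 counts per library.

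Of the REV-ERB receptor genes, *Nr1d2* rose at 24M and *Nr1d1* did not pass at either age. *Nr1d1* (ENSMUSG00000020889, chr11:98767932-98775333, minus strand) encodes REV-ERB alpha. Its 3M single-end libraries were at 116, 121, 109, 101 and 111 CPM and its 24M samples at 108, 94.9, 89.1, 97.2 and 106 CPM. The groups overlapped, and the log2 fold change was -0.17 ± 0.064 (SE, adjusted p = 0.107), with an adjusted p of 0.0496 when all 4 groups shared 1 fit. In the paired-end set it was at 118, 121 and 119 CPM at 3M and at 102, 102 and 115 CPM at 29M. The 29M libraries were all below the 3M libraries, with a log2 fold change of -0.16 ± 0.049 (SE, adjusted p = 0.102). At 29M, the adjusted p was 0.0179 with no filter on low counts and 0.0357 without 29M replicate 3. A stretch of 263 exon bases, 8.55% of the gene's exon length, lies opposite *Thra*, so that without strand information reads there could not be assigned to 1 of both genes with certainty. For *Thra*, the log2 fold change was -0.07 (24M, adjusted p = 0.521) and -0.01 (29M, adjusted p = 0.958).

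*Nr1d2* (ENSMUSG00000021775, chr14:18204054-18239127, minus strand) encodes REV-ERB beta. It was at 61.8, 69.7, 62.2, 67.4 and 91.6 CPM in the 3M single-end libraries and at 103, 114, 102, 87.1 and 102 CPM at 24M. The groups overlapped only because 3M replicate 5 lay above 24M replicate 5. With a log2 fold change of 0.53 ± 0.10 (SE, adjusted p = 0.0154), or 1.44 times the 3M level, *Nr1d2* was the clock gene with the largest fitted change at 24M. The adjusted p was 0.000596 without 3M replicate 5 and 0.0510 without 24M replicate 2, which ended the call. It came to a log2 fold change just under the threshold without 3M replicate 1 (0.48) or 3M replicate 3 (0.49), with adjusted p of 0.0404 and 0.0288. In the paired-end set *Nr1d2* was at 105, 115 and 122 CPM at 3M and at 119.9, 113 and 109.7 CPM at 29M. Those groups overlapped fully, with a log2 fold change of 0.0032 ± 0.053 (SE, adjusted p = 0.983).

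*Dbp* (ENSMUSG00000059824, chr7:45705088-45710203, plus strand), the output factor, rose at 24M. It was at 36.8, 52.7, 39.5, 42.7 and 44.4 CPM at 3M and at 54.6, 65.3, 51.1, 60.3 and 61.0 CPM at 24M. Only 3M replicate 2 reached into the 24M range, and the log2 fold change was 0.44 ± 0.093 (SE, adjusted p = 0.0220). The rise no longer passed without 3M replicate 1 (adjusted p = 0.0502) and without 24M replicate 2 (adjusted p = 0.0698). In the paired-end set *Dbp* was at 39.6, 63.7 and 61.3 CPM at 3M and at 67.6, 60.8 and 67.0 CPM at 29M. The low value was that of 3M replicate 1, a library rich in *Gm42418*, and the log2 fold change was 0.24 ± 0.13 (SE, adjusted p = 0.356) with it and 0.06 (adjusted p = 0.720) without it. *Dbp* shares 539 exon bases, 18.0% of its exon length, with *Sphk2* on the opposite strand. *Sphk2* fell at 24M, by 0.32 on the log2 scale (adjusted p = 0.0241), and had -0.13 (adjusted p = 0.420) at 29M.

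The loop has further transcription factors, and its proteins are marked and broken down by kinases and ubiquitin ligases. Of 26 such genes (12 loop factors, 14 regulators), 3 rose and 1 fell at 24M, where 3.21% and 2.37% of all genes did, and 2 rose and none fell at 29M, where 2.32% and 0.662% did. Their median log2 fold change was 0.03 at 24M and 0.0017 at 29M. Most of these genes did not pass at either age.

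*Ciart*, whose product CHRONO represses the CLOCK and BMAL1 dimer, was at 6.18, 6.65, 5.58, 6.22 and 5.14 CPM in the 3M single-end libraries and at 10.8, 10.6, 9.64, 8.20 and 9.46 CPM at 24M. The groups did not overlap, and the log2 fold change was 0.71 ± 0.10 (SE, adjusted p = 0.00339), which was at least 0.66 in each fit that left out 1 library. At 29M *Ciart* was at 13.0, 14.6 and 14.4 CPM against 8.07, 12.3 and 10.2 CPM at 3M, also apart, and the log2 fold change of 0.44 ± 0.13 (SE) had an adjusted p of 0.0969, against 0.00205 with no filter on low counts and 0.0262 without 3M replicate 2. *Bhlhe41*, which encodes DEC2, a repressor that competes for E-boxes, rose at both ages. It was at 47.3, 47.9, 48.1, 44.8 and 51.0 CPM at 3M and at 64.2, 69.1, 65.6, 63.0 and 75.9 CPM at 24M. Its paired-end libraries were at 43.9, 49.7 and 51.0 CPM at 3M and at 60.4, 59.9 and 62.8 CPM at 29M. Aged and 3M samples were apart in both sets, with log2 fold changes of 0.50 ± 0.059 (SE, adjusted p = 0.000708) at 24M and 0.34 ± 0.063 (SE, adjusted p = 0.0101) at 29M. The rise at 29M no longer passed without 29M replicate 1 (adjusted p = 0.0504) or replicate 3 (adjusted p = 0.0564).

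*Nfil3* encodes E4BP4, which binds the same D-boxes as DBP and represses there. It fell at 24M, from 10.8, 9.35, 11.2, 14.7 and 9.44 CPM to 7.79, 7.97, 7.73, 8.31 and 7.42 CPM, with no overlap. The log2 fold change was -0.50 ± 0.12 (SE, adjusted p = 0.0336). In 5 of the 11 fits that leave out 1 library the fall no longer passed. These were the fits without 3M replicate 1 or 3 or 24M replicate 2, 3 or 6 (adjusted p up to 0.0823). At 29M its log2 fold change was -0.21 (adjusted p = 0.477). *Arntl2*, a relative of *Arntl*, rose at 29M from 4.92, 5.17 and 5.13 CPM to 7.99, 7.42 and 7.56 CPM, with a log2 fold change of 0.59 ± 0.13 (SE, adjusted p = 0.0245). In 5 of the 6 fits that leave out 1 library, all but that without 29M replicate 2, this call ended, with adjusted p up to 0.140.

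The other loop factors on the list of names did not pass, though alternatives moved 3 of them past the threshold at 24M. *Npas2*, which can take the place of *Clock*, stood at -0.19 (24M, adjusted p = 0.126) and -0.05 (29M, adjusted p = 0.832) on the log2 fold scale, and without 3M single-end replicate 5 at -0.24 (24M, adjusted p = 0.0351). *Rora* and *Rorb* encode ROR receptors, the activators at the element that REV-ERB occupies. *Rora* had log2 fold changes of 0.14 and 0.09 at 24M and 29M, and *Rorb* of -0.39 (adjusted p = 0.0671) and -0.08. At 24M, 5 alternatives, DESeq2 among them (adjusted p = 0.0278), moved *Rorb* past the threshold. *Rorb* also stands on the list of neocortical markers, whose summed level was highest in 3M single-end replicate 4. *Bhlhe40*, the relative of *Bhlhe41*, had log2 fold changes of 0.12 and 0.05. Leaving out 3M replicate 3, at 145 CPM against 113 to 117 CPM in the other 3M single-end libraries, gave 0.19 at 24M (adjusted p = 0.0419). *Tef* and *Hlf*, the PAR-domain relatives of *Dbp*, had 0.04 and 0.11 at 24M and 0.03 and 0.09 at 29M, all with adjusted p of at least 0.108.

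**Figure D2:**
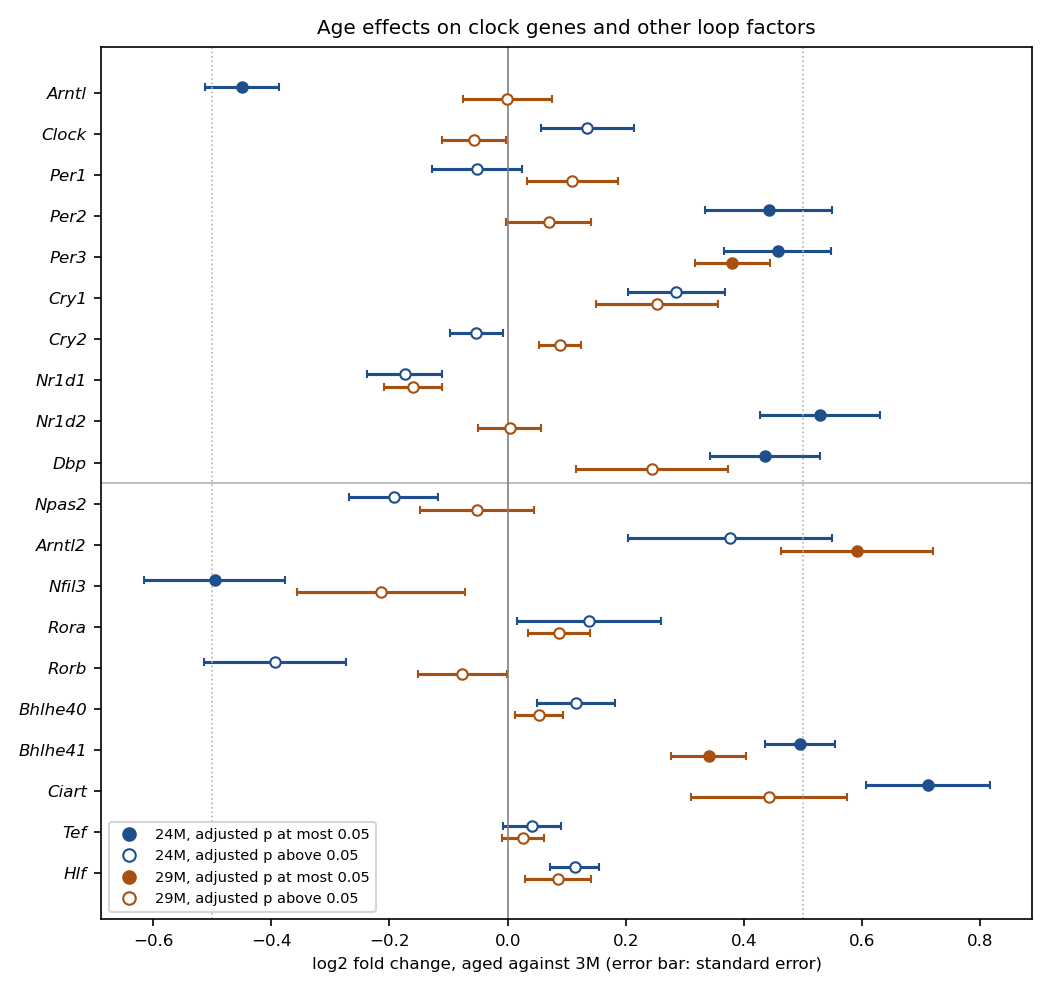
Log2 fold change of aged against 3M samples (x axis) for the 10 clock genes (upper rows) and 10 other clock pathway genes, at 24M (blue) and 29M (brown). Error bars are standard errors, filled points have an adjusted p of at most 0.05 by edgeR, and dotted lines mark log2 fold changes of -0.5 and 0.5. *Per3* and *Bhlhe41* are filled at both ages, and *Arntl* lies at -0.45 at 24M and beside the zero line at 29M.

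Whether the age effects differed between the sets was tested directly, as the 29M effect minus the 24M effect in 1 fit of all 4 groups. By edgeR's quasi-likelihood test 0 of the 10 clock genes passed, as did 0.0% of 16055 genes, and DESeq2 also passed 0. At an unadjusted p under 0.05 were 4 clock genes with edgeR (10.4% of all genes) and 3 with DESeq2 (5.6% of all genes given a p, with no filter on low counts). The difference for *Arntl* was 0.45 ± 0.10 (SE, unadjusted p = 0.000406 by edgeR, adjusted p = 0.392). For *Nr1d2* it was -0.53 ± 0.15 (SE, unadjusted p = 0.00230 by edgeR, adjusted p = 0.392), and this gene passed without 3M single-end replicate 5 (adjusted p = 0.0401). *Per2* had -0.37 (unadjusted p = 0.0308 by edgeR) and *Cry2* 0.14 (unadjusted p = 0.0415 by edgeR). The change of *Arntl*, *Nr1d2*, *Per2* and *Dbp* at 24M alone is therefore not shown to differ from that at 29M.

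The 3M groups of both library types had the same labelled age, and 3 of the 10 clock genes did not overlap between them, a share near that of all genes (21.4%). These values were normalised in separate tables, and library type, read length and any other difference between the groups cannot be told apart, so they are given side by side with no test. *Arntl* had a mean of 41.0 ± 1.20 CPM (SD, n = 5) at 3M single-end and 27.7 ± 1.55 CPM (SD, n = 3) at 3M paired-end, a log2 difference of -0.56. *Nr1d2* had means of 70.5 ± 12.2 and 114 ± 8.52 CPM (SD), a log2 difference of 0.71. For *Per2* the means were 26.3 ± 4.48 and 33.8 ± 2.91 CPM (SD), a log2 difference of 0.38. No sample of the 1 group overlapped the other for these 3 genes. The absolute difference was larger than that of 93.2% of genes for *Arntl*, 94.9% for *Nr1d2* and 88.0% for *Per2*, where the median over genes was 0.128. In *Per3* and *Dbp* the log2 differences were 0.33 and 0.32, with overlapping samples, and in the other 5 genes they lay between -0.05 and 0.13. This difference and the 24M comparison share the 3M single-end samples, so they are not independent.

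**Figure D3:**
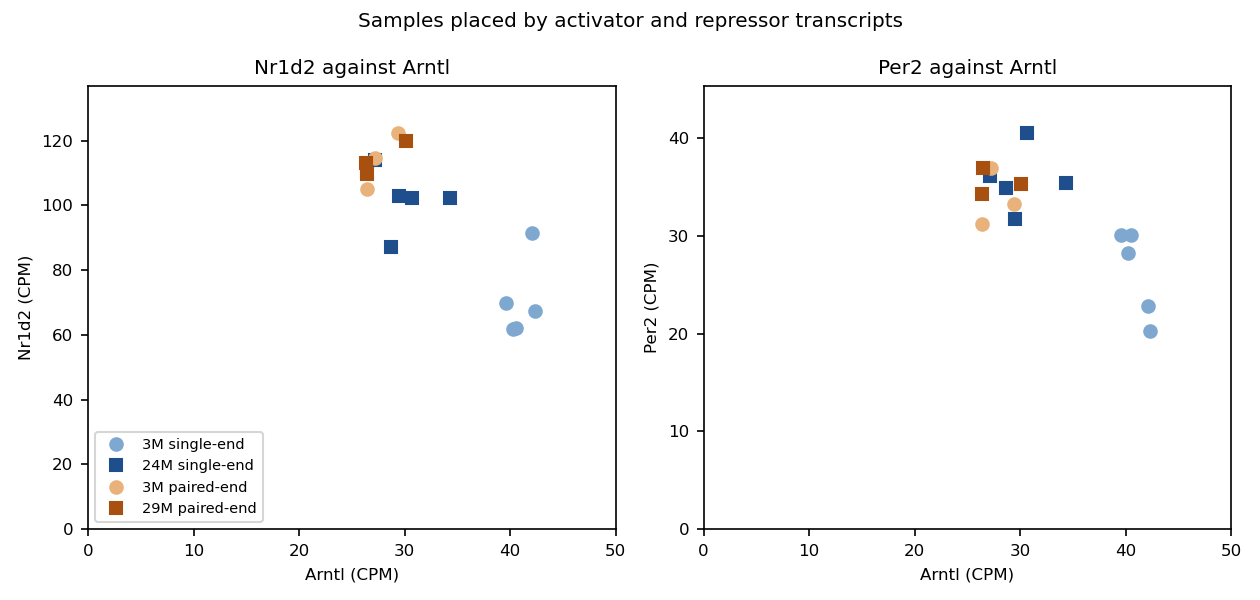
*Nr1d2* (left) and *Per2* (right) in CPM on the y axes against *Arntl* in CPM on the x axes, 1 point per sample, coloured by group, all axes from 0. The 5 samples of the 3M single-end group sit apart at *Arntl* levels from 39.6 to 42.3 CPM, and the 3 other groups share the range from 26.3 to 34.3 CPM.

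Divided by exon length, the same 2 genes had the highest levels in all groups. *Nr1d1* was highest in each group, with means of 32.1 to 38.7 CPM per kilobase of exon, and *Cry2* came second with 24.5 to 26.0. Neither overlapped its neighbour in the order, in any group. *Dbp*, *Nr1d2* and *Per1* followed, between 13.0 and 21.8 CPM per kilobase. *Dbp* and *Nr1d2* overlapped in the 24M, 3M paired-end and 29M groups, *Dbp* and *Per1* in both 3M groups, and *Per1* and *Nr1d2* at 3M single-end. *Clock* was the sixth, at 6.93 to 7.61. *Arntl* was the seventh at 3M single-end, with 5.44 ± 0.16 CPM per kilobase (SD, n = 5), and the last at 24M with 3.99 ± 0.36, at 3M paired-end with 3.68 ± 0.21 and at 29M with 3.67 ± 0.29. Its range overlapped that of the next gene, *Per3* at 24M and *Cry1* at 3M paired-end, and did not at 29M. *Cry1* and *Per3* were neighbours in all groups, between 3.20 and 5.19 CPM per kilobase, and overlapped in all groups but 29M. *Per2* overlapped *Cry1* at 3M single-end and *Clock* at 24M.

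**Figure D4:**
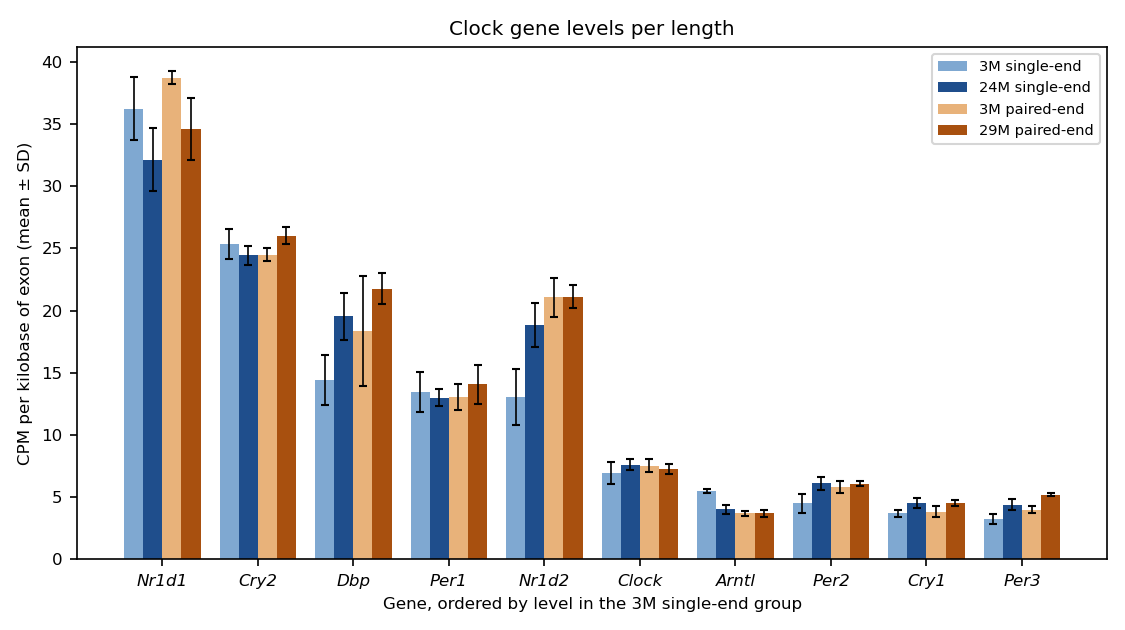
Mean level of each clock gene in CPM per kilobase of exon (bars from 0, with SD among samples) in the 4 groups, ordered by the level in the 3M single-end group. *Nr1d1* and *Cry2* are highest in all groups, and *Arntl* drops from the seventh place at 3M single-end to the last in the other groups.

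Inside the groups, 7 of the 10 clock genes spread more than the median gene of like level, and *Cry2*, *Arntl* and *Cry1* spread less. The SD of log2 CPM pooled over the groups was compared, as a description, with that of the 500 genes nearest in mean level. By definition, as many near genes lie above their median as below it. The SD was above that median for 7 of the 10 genes, by the least for *Nr1d1* (0.098, above 68.4% of its near genes). *Dbp* spread most, with an SD of 0.21, above 97.4% of its near genes, and the 3M paired-end group gave the highest value, 0.38, with its low replicate 1. *Nr1d2* had 0.16, above 94.2% of its near genes, and *Per2* had 0.17, above 87.6%. *Per1* (0.14), *Clock* (0.13) and *Per3* (0.14) lay above 88.0%, 81.4% and 78.6% of near genes. *Cry2* had the lowest SD, 0.051, which exceeded that of 13.2% of near genes. *Arntl* had 0.094 (36.4%) and was tightest in the 3M single-end group, where its SD of 0.042 exceeded that of only 3.6% of near genes. *Per2*, *Nr1d2*, *Per3*, *Clock* and *Per1* had larger SDs in the 3M single-end group (0.26, 0.23, 0.18, 0.18 and 0.17) than in any other. Ranked among near genes, only *Per2* (above 92.4%) and *Nr1d2* (above 93.0%) of these were highest in that group. *Per1* was above 86.6% there and 98.4% at 29M. *Clock* was above 86.0% there and 87.0% at 29M, and *Per3* above 78.8% there and 81.0% at 24M.

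**Figure D5:**
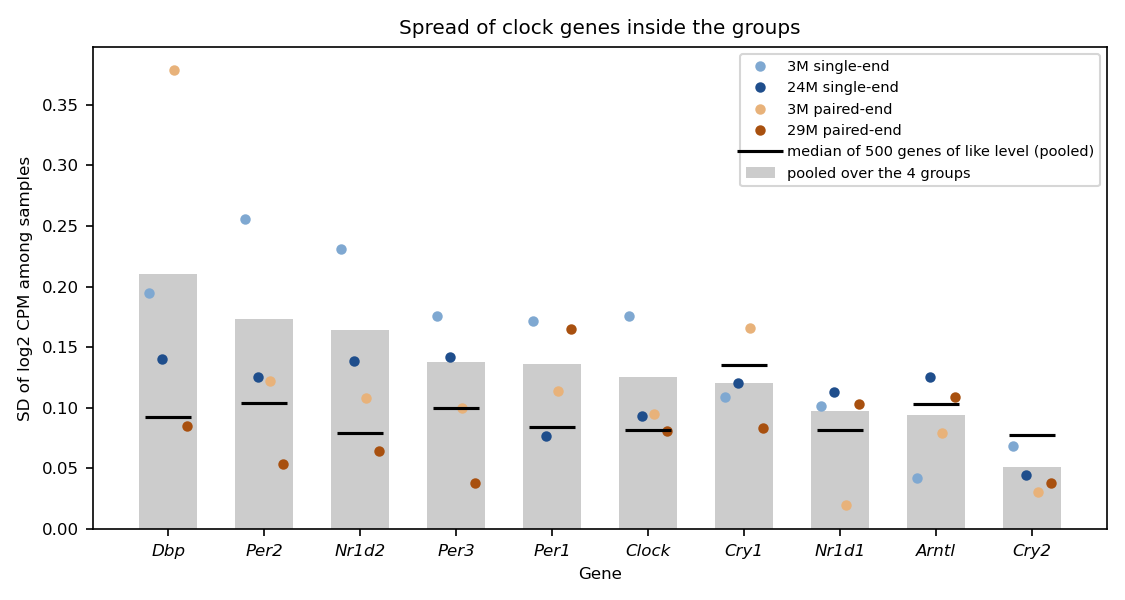
SD of log2 CPM among samples (y axis from 0) for each clock gene, pooled over the groups (grey bars) and in each group (points), with the median pooled SD of 500 genes of like level (black lines). The bars of *Dbp*, *Per2* and *Nr1d2* are highest, at 0.21, 0.17 and 0.16, and those of *Cry1*, *Arntl* and *Cry2* lie under their black lines.

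Whether clock genes moved together from sample to sample was tested on log2 CPM after removal of group means, over 16 samples. Of 45 pairs, 0 passed at an adjusted p of at most 0.05 in a two-sided permutation test within groups, and 2 had an unadjusted p under 0.05. *Clock* and *Nr1d2* had a Pearson's r of 0.84 (permutation p = 0.00361, adjusted p = 0.0972) and a Spearman's rho of 0.79 (permutation p = 0.00227, adjusted p = 0.102). Without the 2 samples farthest from the median of *Clock*, 3M single-end replicate 5 and 24M replicate 5, r was 0.45. These were chosen for their extreme *Clock* values, which by itself can lower r, so what the relation rests on was not tested. Within single-end samples r was 0.89 and within paired-end samples 0.53. *Cry2* and *Nr1d2* had an r of -0.72 (permutation p = 0.00432, adjusted p = 0.0972) and a rho of -0.64 (permutation p = 0.0121, adjusted p = 0.272). Without the 2 farthest samples r was -0.55, and it was -0.73 in single-end and -0.63 in paired-end samples.

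The genes whose deviations from the group means were most like those of each clock gene were searched among 11836 genes with a mean of at least 5 CPM, as a description over 16 samples. For *Arntl* these were *Vav3* (Pearson's r 0.87), *Ldhd* (0.83) and *Thoc7* (0.81). *Clock* was followed most closely by *Zfp148* (0.95), *Gabpa* (0.95) and *Scai* (0.94). *Nr1d2* came with *Prrg1*, *Zranb1* and *Tmed7* (each 0.94), and *Cry2* with *Pacsin1* (0.94), *Cacng8* (0.93) and *Cluh* (0.93). The genes most like *Per1* were *Exoc8* (0.89), *Insm1* (0.88) and *Frat2* (0.86). Those most like *Per2* were *Inpp5b* (0.90), *Ica1* (0.89) and *Auts2* (0.88), and among those most like *Per3* were *Snrnp70* (0.90) and *Gm21781* (0.89). *Cry1* had the lowest values, with *Zmat5* (0.81), *Mcf2* (0.75) and *Fam81a* (0.75). *Nr1d1* was nearest to *Klhl40* (0.82), an identifier without a name (ENSMUSG00000079002, 0.81) and *Snx29* (0.81). *Dbp* was nearest to *Ccdc13* (0.89), *Fam76a* (0.87) and *Txnip* (0.85). No clock gene was eligible for these lists, so a clock pair can have a value like theirs.

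Glucocorticoids and temperature are known to reset tissue clocks. Of 12 glucocorticoid response genes, 4 rose at 24M and 3 at 29M, against 3.21% and 2.32% of all genes. *Plin4*, which coats lipid droplets, rose by 1.37 ± 0.19 at 24M (SE, log2 scale, adjusted p = 0.00230) and by 1.24 ± 0.18 at 29M (SE, adjusted p = 0.00236). *Hif3a*, an inhibitor of hypoxia signalling, rose by 1.04 ± 0.16 (SE, adjusted p = 0.00494) and by 1.29 ± 0.27 (SE, adjusted p = 0.0201). *Sgk1*, a kinase induced by glucocorticoids, rose by 0.55 (adjusted p = 0.0420) and *Fkbp5*, a chaperone of their receptor, by 0.37 (adjusted p = 0.0226), both at 24M, and the sulfotransferase gene *Sult1a1* by 0.64 at 29M (adjusted p = 0.0405). Among 8 temperature response genes, the cold induced *Rbm3* rose at both ages, by 0.51 and 0.36, *Cirbp* rose by 0.24 at 24M, and the heat shock gene *Hsph1* fell at both ages, with log2 fold changes of -0.28 and -0.27. *Hsp90aa1* also fell at 29M, by 0.18. The part of these signals in the clock gene results was not tested.

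Of 15 immediate early genes, which neurons switch on within minutes of activity, 7 fell at 24M, against 2.37% of all genes, and none passed at 29M, against 2.99%. The median log2 fold change was -0.74 at 24M and 0.08 at 29M. Called at 24M were *Arc* (-1.27), *Ier2* (-1.06), *Egr1* (-0.94), *Junb* (-0.74), *Egr4* (-0.66) and *Btg2* (-0.53). The summed level of the 15 genes ranged from 521 to 1175 CPM at 3M single-end, highest in replicate 4, and from 451 to 517 CPM at 24M. In the paired-end set it ranged from 452 to 539 CPM at 3M and from 459 to 604 CPM at 29M. The part of these transcripts in the clock gene changes at 24M was not tested.

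Markers of neighbouring regions and of cell types were summed beside these results. The median log2 fold change of striatal markers was -0.55 (24M) and -0.06 (29M), with sums of 244 to 747 CPM at 3M single-end and 258 to 292 CPM at 24M. Neocortical markers had medians of -0.49 (24M, where 3 of 10 fell, against 2.37% of all genes) and -0.07 (29M). Their sums were 246 to 384 CPM at 3M single-end and 203 to 227 CPM at 24M. For both lists 3M single-end replicate 4 was the highest. Without it, the log2 fold change of *Arntl* at 24M was -0.44 (adjusted p = 0.00605) and that of *Per3* 0.43 (adjusted p = 0.0362). *Nr1d2* had 0.51 (adjusted p = 0.0333) and *Dbp* 0.43 (adjusted p = 0.0454). These genes still passed the adjusted p, and of the clock genes that rose or fell at 24M only *Per2* did not. The hypothalamus, which holds the master clock, had 5 of 12 markers above the filter at 24M and 4 at 29M, and among those below it were *Avp* and *Oxt*. Of 8 microglial markers, 5 rose at 24M and 6 at 29M (3.21% and 2.32% of all genes rose), with medians of 0.36 and 0.35 and sums of 371 to 426 CPM at 3M single-end, 475 to 505 at 24M, 360 to 372 at 3M paired-end and 467 to 490 at 29M. For hippocampus, choroid plexus, astrocytes, oligodendrocytes, neurons and endothelium the medians ranged from 0.01 to 0.08 in the 24M comparison and from -0.13 to 0.15 in the 29M comparison. Among these, the astrocyte genes *Gfap* and *S100b* rose at both ages and *Aqp4* at 24M, the endothelial *Cldn5* fell at 24M and the hippocampal *Wfs1* fell at 29M, and no other marker of these 6 lists passed. Their part in the clock gene results was not tested.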

How the data were processed

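PolyA RNA of mouse hippocampus was sequenced in 17 libraries. The authors aligned reads with STAR (2.3.0 per the submitters' processing notes, genome GRCm38.p2), counted them with HTSeq and deposited the raw counts of each library as a table. No source used here gives the strand setting of this step. Reads that HTSeq assigned to no single gene (no feature, ambiguous or not unique), 23.9% to 40.3% of all, stayed out of library sizes and tests.

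From these counts, each aged group was tested against the 3M group of its library type with the quasi-likelihood test of edgeR 4.0.16 (R 4.3.3) after TMM scaling and filterByExpr, and p-values were adjusted after Benjamini and Hochberg over all genes tested. Groups follow the labelled age and library type. 24M replicates 1 and 4 entered as 1 sample, their rounded mean. CPM values were computed here from the deposited counts, with a prior count of 2 on the log2 scale, and per-length levels use GENCODE M21 exon lengths. Standard errors were derived from each log2 fold change and its F statistic. Correlations used 100000 permutations within groups. Identifiers were named from GENCODE (36602 of 38355). The steps were tested on simulated data.

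The clock genes and all gene lists were chosen with earlier results of these data known. Named are all 10 clock genes, of the other pathway genes those called and 9 set factors, *Sphk2*, *Thra* and *D930015M05Rik* for their shared exons, the 3 genes most like each clock gene, and in 3 response lists the genes called; those named below the fold threshold were added after their values were seen. Alternatives were DESeq2 1.42.0, DESeq2's size factors, filters (none, at least 1 CPM), 1 fit of all groups, a replicate block, no fold threshold, the 24M pair apart or left out, each library left out and, added after seeing the data, both *Gm42418*-rich libraries left out. Counting depth limits *Cry1* most. Splicing and editing were not analysed here, and a few of the genes counted are not reported here by name.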

Additional observations from a re-analysis of the deposited data

Results flagged for a closer look

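In 6 of 72 groups of 5 samples of the clock pathway genes, the highest or lowest sample stood far from the others by Dixon's criterion, where chance would give 3.6. Among the 10 clock genes, *Cry1* was at 17.37 CPM in 24M replicate 2, with the next sample at 14.99 CPM, and *Nr1d2* was at 91.55 CPM in 3M single-end replicate 5, with the next at 69.72 CPM. *Arntl2* was at 7.01 CPM in 24M replicate 3, against 4.58 CPM in the next sample. *Bhlhe40* was at 145.1 CPM in 3M single-end replicate 3, above the next at 117 CPM. *Usp2*, which encodes a deubiquitinase of clock proteins, was at 65.98 CPM in that library, below the next at 89.4 CPM. *Fbxl21*, an F-box gene, was at 4.449 CPM in the mean of 24M replicates 1 and 4, below the next at 5.36 CPM. The 2 flags of 3M single-end replicate 3 fall on genes that did not pass at either age.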

How the results depend on the processing

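The replicate numbers did not pair the samples, since the correlations of the deviations of samples with the same number lay between -0.137 and 0.0965. With the number as a replicate block, 0 clock genes were called at 24M in place of 1, 1 (*Arntl*) passed the adjusted p in place of 5, and 2 of the other pathway genes (*Bhlhe41*, *Ciart*) passed in place of 4. At 29M the block left the count of clock genes past the adjusted p at 1.

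With no fold threshold, 5 clock genes and 4 other pathway genes counted at 24M, and 1 and 2 at 29M. With no filter on low counts, 2 other genes were called at 24M (*Ciart*, *Nfil3*), and at 29M 3 clock genes (*Nr1d1*, *Per3*, *Dbp*) and 4 others passed the adjusted p. Without the 24M pair, 2 other genes (*Bhlhe41*, *Ciart*) were called and 2 passed. At 24M, 1 fit of all 4 groups raised the clock genes past the adjusted p to 7 (*Cry1* and *Nr1d1* added), and DESeq2 and the 24M pair kept apart each gave 6 (*Cry1* added). Of all genes, 875 of 15683 passed at 24M in the main fit and 1592 of 15154 with DESeq2. At 29M these were 451 of 15097 and 306 of 16859. The other alternatives are given without such a share, so a changed clock count there cannot be told from a changed count of all genes. At 29M, 1 fit of all 4 groups gave 0 clock genes past the adjusted p, with 0 other genes called and 1 past it. DESeq2 and, in an alternative added after seeing the data, leaving out both *Gm42418*-rich libraries each gave 0 other genes called and 1 (*Bhlhe41*) past the adjusted p.

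Leaving out 1 library gave 0 to 2 clock genes called and 2 to 6 past the adjusted p at 24M, and for the other genes 1 to 3 called and 2 to 7 past it. The 0 came without 3M replicate 3 or 24M replicate 2, the 2 called without 3M replicate 2, without 3M replicate 1 the gene called was *Per3*, and 3 clock genes passed without 3M replicate 1 and 2 without 24M replicate 2. For the other genes the 7 came without 3M replicate 5. At 29M the ranges were 0 for clock genes called, 1 to 2 past the adjusted p (2 without 29M replicate 3), 0 to 1 for other genes called and 0 to 2 past it. The difference between ages gave 0 to 1 clock genes (*Nr1d2*), and 0 of 45 pairs correlated in each alternative. The causes were not tested. Of the values of single clock genes under alternatives, 171 of 190 at 24M and 126 of 130 at 29M kept their side of the threshold. None changed sign against the main fit where either of both fits passed the adjusted p. Signs did change where neither passed, as for *Arntl* at 29M (-0.067 to 0.042).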
